A study of Mus musculus with 16 samples.

Results

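Innate sensors of microbes and the inflammasome adaptor and caspase were followed here as 10 genes: the Toll-like receptors Tlr2, Tlr3 and Tlr4, the co-receptor Cd14, the adaptor Myd88, the cytosolic sensors Nod1, Nod2 and Nlrp6, the inflammasome adaptor Pycard and the protease Casp1. All probes whose array symbol is one of these names were taken, which gave 11 of the 25697 probes on the array, 1 for each gene and 2 for Tlr4. RNA came from the small intestine of 16 mice, each on 1 Illumina bead array. The 8 knockout (KO) mice carried loxP-flanked Hnf4a alleles and a Cre recombinase that tamoxifen activates and the villin promoter expresses, and their genotype is given as Hnf4a-/-. The 8 wildtype (WT) mice lacked the Cre. The protocol gives them the same loxP-flanked alleles, while their genotype label reads Hnf4a+/+, and which of these holds is not settled by the labels. All 16 mice were gavaged with tamoxifen (1 mg a day, 5 days running), irradiated 3 weeks afterwards with 14 Gy of gamma rays to the whole body, and killed 96 hours after that. The villin promoter is active in intestinal epithelial cells, so that macrophages, vessels and muscle in the same tissue are not targeted by the Cre, and no unirradiated mice were measured. The labels state neither age nor strain.

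Toll-like receptors recognise microbial molecules at the cell surface or in endosomes and signal through adaptors such as MYD88 to NF-kappaB. NOD1 and NOD2 sense fragments of bacterial cell wall in the cytosol and signal through the kinase RIPK2. Inflammasome sensors such as NLRP6 and AIM2 recruit the adaptor ASC, the product of Pycard, which brings caspase-1 together so that it cleaves pro-IL-1beta, pro-IL-18 and gasdermin D. In the gut these genes are used by epithelial cells and by resident macrophages, which differ in the set they express.

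The receptor genes Tlr2, Tlr4 and Nod1 were higher in knockout tissue, Pycard was lower, and Cd14, Myd88 and Casp1 did not pass the test. Of the 11 probes, 7 were detected on enough arrays to be tested (detection p under 0.05 on at least 6 of 16 arrays). Among them 3 rose and 1 fell at an adjusted p under 0.05 in limma's moderated test, where 29.4% of all 13460 tested probes passed, 12.4% higher and 17.0% lower. On the same 4 probes the knockout and wildtype values did not overlap at all. Groups that do not overlap were found for 6.36% of all tested probes, 2.34% with knockout higher and 4.02% with knockout lower. The Tlr4 probe is in both counts, but it was detected on 1 wildtype array and so was tested only through the group in which it was high. Its call cannot be read against these shares, and the other 3 calls are Tlr2, Nod1 and Pycard, each detected on all 16 arrays. The other 4 probes, those for Tlr3, Nod2 and Nlrp6 and the other Tlr4 probe, were not tested. Log2 differences below subtract wildtype from knockout and carry a standard error (SE), each adjusted p is Benjamini-Hochberg adjusted over all 13460 probes from that limma fit, and each level is a normalized intensity on the log2 scale.

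The 250 bases before the transcription start of 3 of the 4 genes that changed are shown because letters bound by HNF4 or by inflammatory factors were looked for in them. They are RefSeq sequences of build GRCm38.p6, read 5′ to 3′ on the gene's strand, with matches in capitals. The Tlr2 window is chr3:83841609-83841858 on the minus strand, the Nod1 window chr6:54971662-54971911 (minus strand, the more downstream of 2 starts in the table), and the Pycard window chr7:127993868-127994117 (minus strand).
Tlr2: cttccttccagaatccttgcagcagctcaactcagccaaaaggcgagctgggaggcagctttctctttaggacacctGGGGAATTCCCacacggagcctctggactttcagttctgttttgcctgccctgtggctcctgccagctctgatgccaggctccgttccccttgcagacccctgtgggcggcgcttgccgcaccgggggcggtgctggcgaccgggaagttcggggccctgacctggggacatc
Nod1: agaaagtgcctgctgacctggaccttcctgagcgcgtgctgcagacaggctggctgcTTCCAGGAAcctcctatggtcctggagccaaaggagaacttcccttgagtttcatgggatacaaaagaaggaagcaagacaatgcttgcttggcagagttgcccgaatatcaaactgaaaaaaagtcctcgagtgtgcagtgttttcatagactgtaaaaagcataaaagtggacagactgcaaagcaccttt
Pycard: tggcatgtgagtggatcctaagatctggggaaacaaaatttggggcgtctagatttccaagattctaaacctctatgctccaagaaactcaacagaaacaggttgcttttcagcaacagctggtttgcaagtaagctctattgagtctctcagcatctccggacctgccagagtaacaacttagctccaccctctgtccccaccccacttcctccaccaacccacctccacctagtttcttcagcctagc
Matches were sought on both strands. The letters CAAAGTNCA, an HNF4 site, were in none of the 9 windows searched, from 8 of the 10 genes, and are in 1.19% of 32851 such windows. Tlr4 had no window. Cd14 was left out of the search because of its chromosome, which the share over all windows still includes. The NF-kappaB consensus matched Tlr2 at bases 78 to 87 and, overlapping it, at 79 to 88 of the window, and Tlr3 at bases 40 to 49. That consensus is in 3.90% of all windows. TTCNNNGAA, the core letters of a STAT site, matched this Nod1 window at bases 58 to 66 and the Myd88 window at 205 to 213, and is in 7.02% of windows. The interferon-stimulated response element, read as GAAA, any 2 bases and GAAA, matched Myd88 alone among the 8 genes, at bases 211 to 220, overlapping the STAT match, and is in 2.98% of windows. No match was found in the Pycard window or in the window of the other Nod1 start. A match describes letters only, and a window without one says nothing of whether a factor binds elsewhere.

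Arrays detected between 46.9% and 53.1% of probes. Hnf4a itself, the targeted gene, read 11.91 to 12.50 (median 12.24) in wildtype and 10.17 to 10.71 (median 10.50) in knockout tissue, so that no arrays overlapped (difference -1.75, SE 0.10, adjusted p = 1.68e-09, limma). The position of its probe against the floxed exons was not known here, so the value may not measure the deletion itself. Epithelial markers such as keratins, cadherin and villin were present on all arrays, with a mean over 10 genes of 12.07 to 12.49 in wildtype and 11.97 to 12.51 in knockout tissue. The arrays lay on 2 slides with 4 of each genotype on each, and for no tested member did the change of the genotype difference between slides pass (smallest adjusted p of the interaction 0.994, limma). The smallest unadjusted p of that interaction among the 7 members was 0.403, for Casp1.

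Tlr2, the receptor for bacterial lipoproteins, read 7.55, 7.76 and 8.07 (lowest, median and highest) on the 8 wildtype arrays and 8.35, 8.69 and 9.55 on the 8 knockout arrays. Every knockout array lay above every wildtype array, and knockout arrays 1 and 5 were highest, at 9.55 and 9.15. Wildtype averaged 7.79 ± 0.19 and knockout 8.78 ± 0.40 (SD, n = 8 each), a 1.98-fold rise (log2 difference 0.99, SE 0.15, adjusted p = 0.000153, limma). It was 1.09 on slide 1 and 0.88 on slide 2, and 0.88 without knockout array 1.

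Tlr4, the receptor for bacterial lipopolysaccharide, was dim in wildtype tissue. On its brighter probe wildtype arrays read 5.19, 5.58 and 6.45 (lowest, median and highest) and knockout arrays 6.75, 7.05 and 7.49. Only wildtype array 7, at 6.45, came near the knockout range. Means were 5.64 ± 0.40 and 7.07 ± 0.30 (SD, n = 8 each), with a log2 difference of 1.43 (SE 0.17, adjusted p = 1.35e-05, limma) that was 1.35 on slide 1 and 1.52 on slide 2. The probe was detected on all 8 knockout arrays but on 1 of 8 wildtype arrays. Its unlogged fold of 2.70 therefore rests on wildtype signals near background. With each wildtype array set to the lowest detected signal on that array or its own value, whichever was higher, the fold was 2.11, and without background correction the log2 difference was 0.76 and still passed.

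The other Tlr4 probe was not detected on any array (detection p between 0.128 and 0.851). It read 5.09 to 5.57 in wildtype and 4.96 to 5.59 in knockout tissue. The Tlr4 rise therefore rests on 1 probe of 2. Which part of the transcript either probe reads was not known here.

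Tlr3, the endosomal receptor for double-stranded RNA, was near the detection limit. It was detected on 4 of 8 knockout arrays (1, 2, 5 and 6) and on no wildtype array. Wildtype arrays read 5.17, 5.51 and 5.84 (lowest, median and highest) and knockout arrays 5.24, 5.87 and 6.20, and knockout array 3, the lowest, lay within the wildtype range. The means differed by 0.36, untested. No fold is given, because the knockout mean did not exceed the lowest detectable signal of the wildtype arrays.

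Cd14, which hands lipopolysaccharide to the TLR4 complex, was detected on all 16 arrays. It read 8.84, 9.11 and 9.31 (lowest, median and highest) in wildtype and 9.02, 9.14 and 9.93 in knockout tissue. The groups overlapped, and only knockout arrays 1 and 5, at 9.93 and 9.35, lay above the wildtype range. The difference was 0.16 (95% interval -0.09 to 0.42, adjusted p = 0.332, limma), and 0.07 without knockout array 1. Myd88, the adaptor that most Toll-like receptors share, read 11.83 to 12.41 (median 12.10) in wildtype and 12.18 to 12.49 (median 12.29) in knockout tissue. Its difference of 0.20 did not pass (95% interval 0.01 to 0.38, adjusted p = 0.0993, limma). Wildtype array 1 held the highest wildtype value, and without it the difference was 0.24 and passed (adjusted p = 0.0380, limma). With 75th percentile scaling it was 0.03. Both 95% intervals, for Cd14 and Myd88, leave out rises as large as that of Tlr2.

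**Figure D1:**
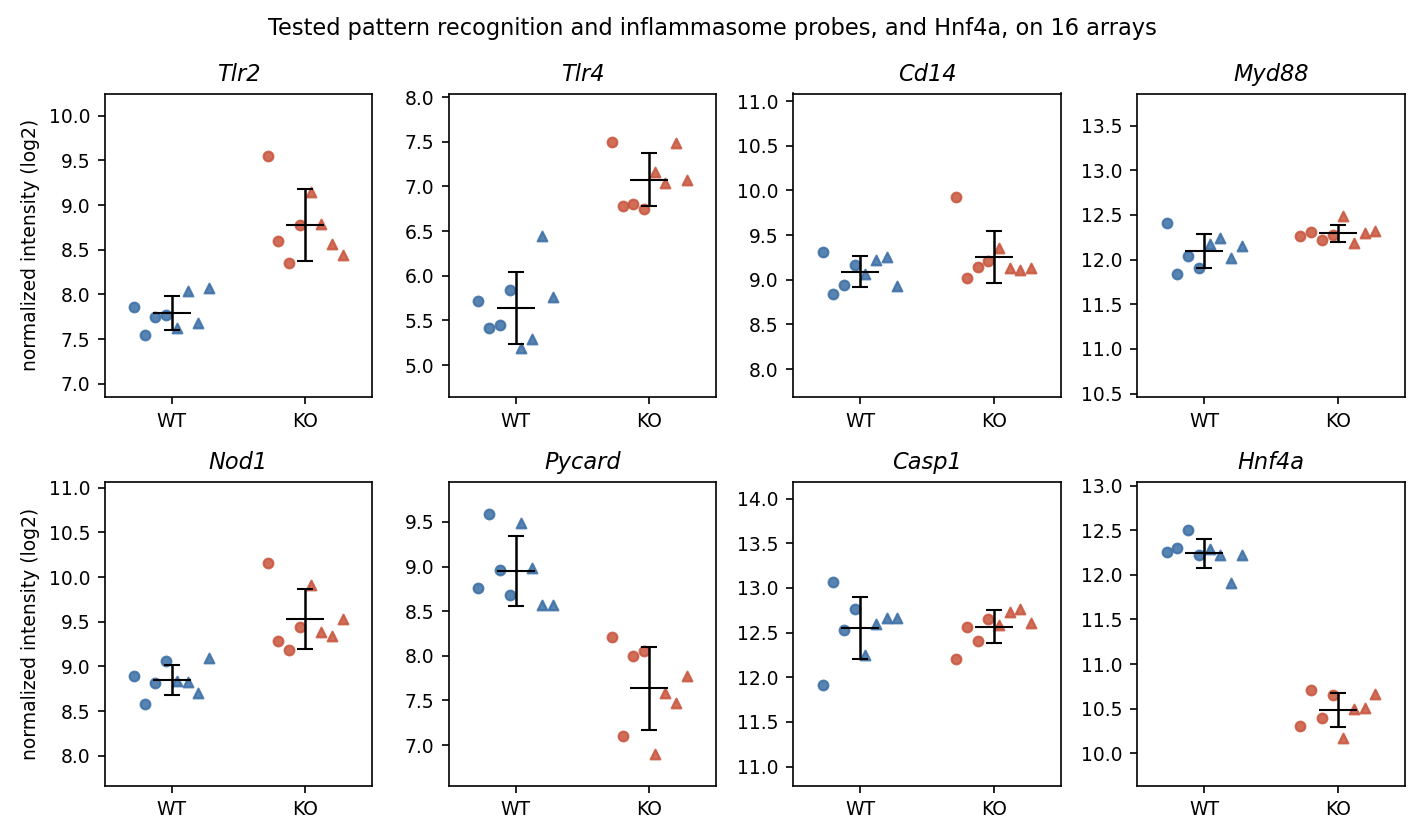
Normalized intensity (log2) of the 7 tested member probes and of Hnf4a on each of 16 arrays, wildtype (WT, blue) and knockout (KO, red), circles for slide 1 and triangles for slide 2, with bars for mean ± SD (n = 8 each); every panel spans the same number of log2 units. Tlr2, Tlr4 and Nod1 sit wholly above and Pycard and Hnf4a wholly below the wildtype arrays, while Cd14, Myd88 and Casp1 overlap.

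Nod1, the sensor of peptidoglycan from mainly Gram-negative bacteria, rose 1.60-fold. Its wildtype arrays read 8.57, 8.83 and 9.09 (lowest, median and highest) and its knockout arrays 9.19, 9.42 and 10.16. The groups did not overlap, but the highest wildtype and the lowest knockout array lay close together. As for Tlr2, knockout arrays 1 and 5 were highest, at 10.16 and 9.91. The log2 difference was 0.68 (SE 0.13, adjusted p = 0.00101, limma) and 0.59 without knockout array 1. Each slide alone gave 0.68, and its 4 against 4 arrays gave, for slide 1 and slide 2, adjusted p values of 0.0903 and 0.0252 (limma).

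Nod2 and Nlrp6 gave no signal above background. Nod2, the sensor of muramyl dipeptide, had detection p between 0.0589 and 0.961 and read 4.87 to 5.53 in wildtype and 4.99 to 5.72 in knockout tissue. Nlrp6, an inflammasome sensor known from intestinal epithelium, had detection p between 0.0702 and 0.634 and read 5.10 to 5.61 and 5.13 to 5.77. No genotype comparison is made for either gene. An undetected probe does not show an absent transcript: the probe of Fabp2, an abundant enterocyte fatty acid binding protein gene, was not detected on any array either.

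**Figure D2:**
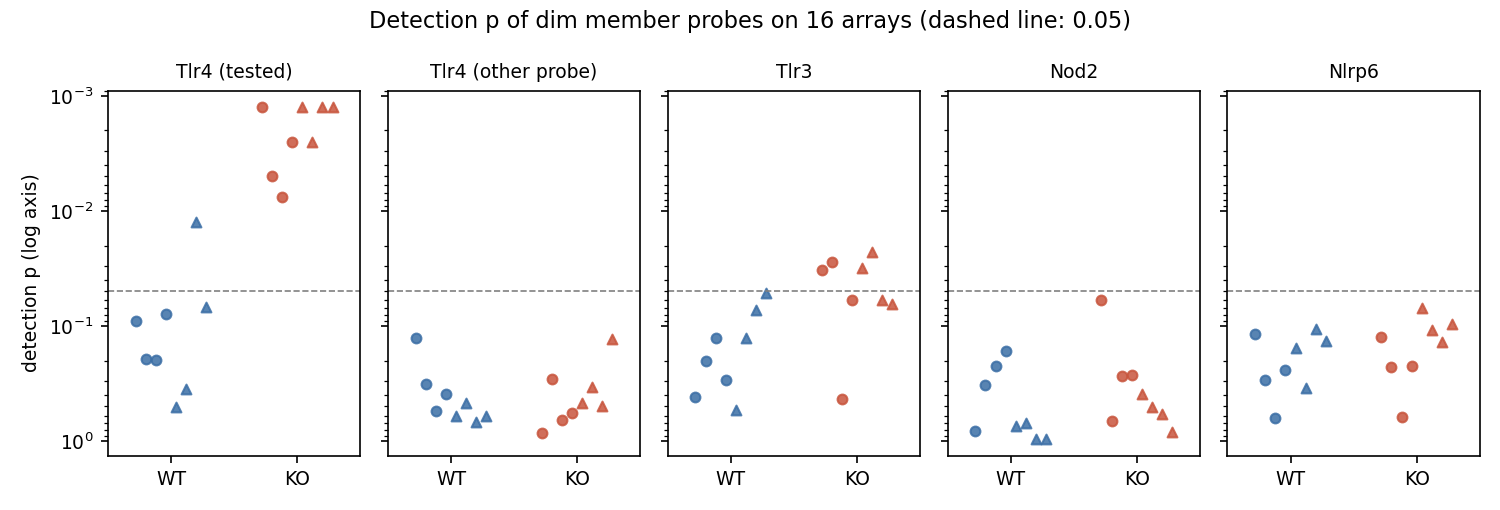
Detection p (log axis, smaller values at the top, dashed line at 0.05) of both Tlr4 probes and of the Tlr3, Nod2 and Nlrp6 probes on each of 16 arrays, wildtype (WT) and knockout (KO), circles for slide 1 and triangles for slide 2. One Tlr4 probe passes the line on 8 knockout and 1 wildtype arrays and Tlr3 on 4 knockout arrays, while the other Tlr4 probe, Nod2 and Nlrp6 pass it on none.

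Pycard, the adaptor that joins inflammasome sensors to caspase-1, fell to 0.402 of its wildtype level. Wildtype arrays read 8.57, 8.86 and 9.59 (lowest, median and highest) and knockout arrays 6.91, 7.68 and 8.22. Every knockout array lay below every wildtype array, with knockout arrays 5 and 2 lowest, at 6.91 and 7.10. Means were 8.95 ± 0.39 and 7.64 ± 0.46 (SD, n = 8 each), with a log2 difference of -1.31 (SE 0.20, adjusted p = 0.000157, limma). On slide 1 it was -1.16 (adjusted p = 0.0432, limma) and on slide 2 -1.47 (adjusted p = 0.00816, limma). Leaving out any 1 array gave differences between -1.40 and -1.21, all past the threshold. Larger differences, in either direction, were measured for 1.92% of tested probes.

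Casp1, the protease that Pycard recruits, did not pass the test. It read 11.91, 12.63 and 13.06 (lowest, median and highest) in wildtype and 12.21, 12.59 and 12.77 in knockout tissue. The wildtype arrays spanned the whole knockout range. The difference was 0.01 (95% interval -0.28 to 0.30, adjusted p = 0.963, limma). Its sign turned with 75th percentile scaling (-0.14), on slide 1 alone (-0.11) and without wildtype array 1 or 5 or knockout array 4, 6 or 7.

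**Figure D3:**
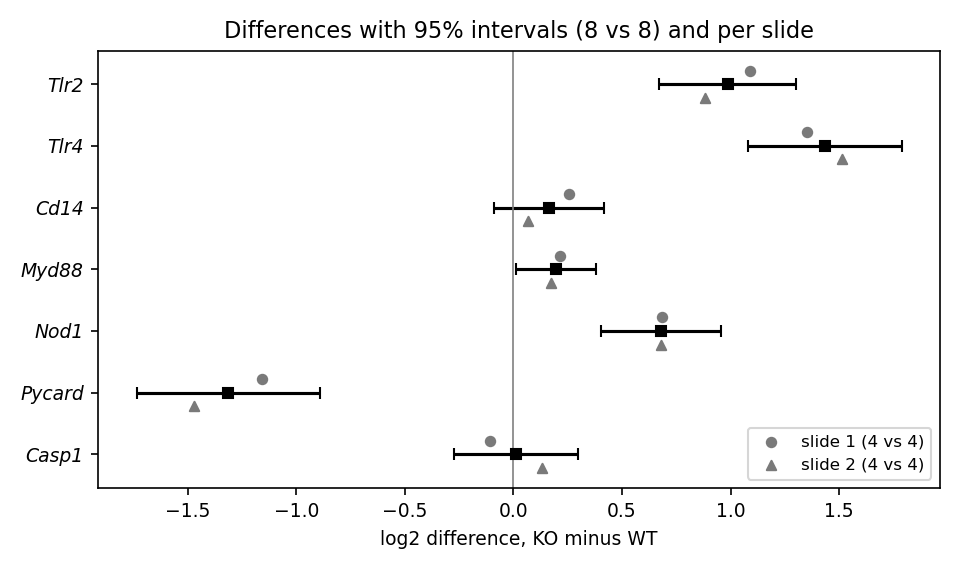
Log2 difference, knockout minus wildtype, of the 7 tested member probes (black squares) with 95% intervals from limma (8 against 8 arrays), and the difference on slide 1 (grey circles) and slide 2 (grey triangles) with 4 against 4 arrays. Tlr2, Tlr4 and Nod1 lie right of 0 and Pycard left of it on both slides, and the Casp1 values on the slides lie on opposite sides of 0.

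The tissue holds many cell types, and fewer cells of a type and less RNA per cell cannot be told apart in it. Markers of macrophages and dendritic cells, which use Toll-like receptors, moved with genotype: 13 of 14 rose and none fell, against 30.0% of 10143 genes called in either direction when each gene is read from its brightest probe. Their mean ran from 8.46 to 9.36 on wildtype and from 9.40 to 10.74 on knockout arrays. The differences of these markers averaged 1.11, with a median of 0.75. Each of the 14 was tested. The exception was Cd163 (adjusted p = 0.132, limma), named after its value was seen. The mannose receptor gene Mrc1 differed by 1.25. The Fc receptor chain gene Fcer1g differed by 4.44, but its probe was detected on 4 of 8 wildtype arrays (wildtype SD 2.78). With values below each array's lowest detected signal raised to it, the difference was 4.08. Fcer1g reached the detection filter only with knockout arrays, where it was high, so its call cannot be read against that share. Knockout array 1 held the highest marker mean and the highest knockout values of Tlr2, Tlr4, Cd14, Nod1 and Pycard.

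The marker mean goes with genotype, so a fit that holds it as a covariate has wider errors. The mean also includes Fcer1g, which read 5.18 to 10.87 on wildtype arrays, and a covariate without that gene was not tested. In that fit none of the members passed by limma, and 2 had an unadjusted p under 0.05. The genotype difference was then 0.12 for Nod1 (SE 0.20, adjusted p = 0.767), 0.53 for Tlr2 (SE 0.27, adjusted p = 0.251) and 0.93 for Tlr4 (SE 0.30, adjusted p = 0.0792). For Pycard it was -1.32 (SE 0.39, adjusted p = 0.0650), as large as without the covariate. The adjusted p values of Pycard over its other alternatives lay between 8.33e-05 and 0.0432. The covariate moved the Cd14 difference to -0.33 (adjusted p = 0.330, limma). How much of each difference comes with a change in cell numbers was not tested.

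**Figure D4:**
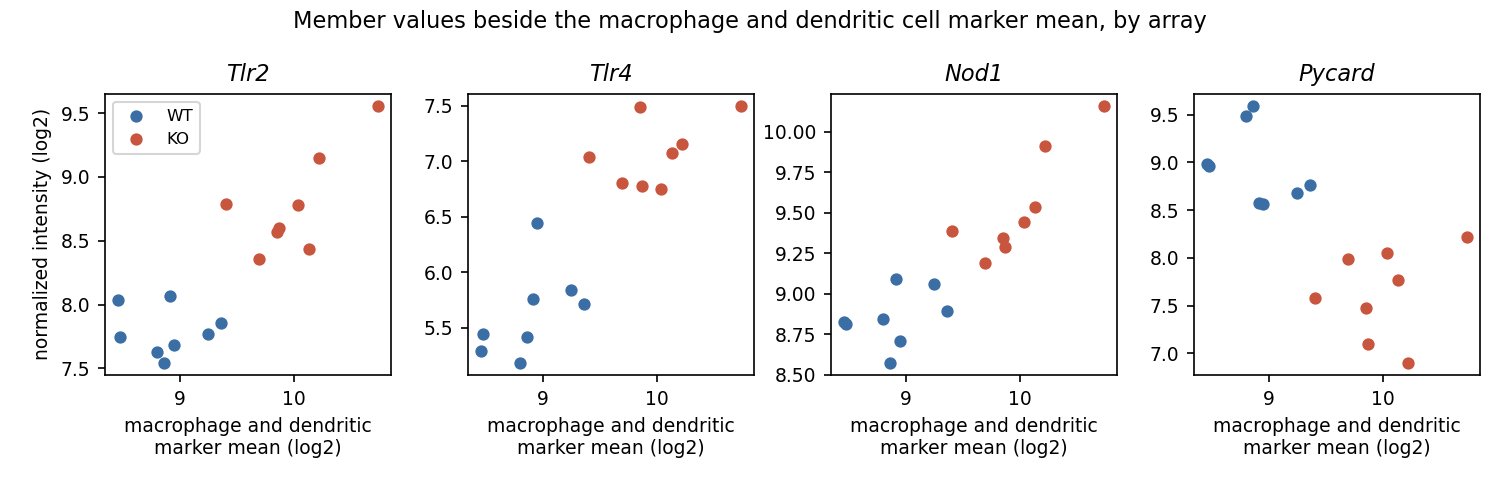
Normalized intensity (log2, vertical axes) of Tlr2, Tlr4, Nod1 and Pycard against the mean of 14 macrophage and dendritic cell markers (log2, horizontal axes) on each wildtype (WT, blue) and knockout (KO, red) array. The marker mean runs from 8.46 to 9.36 in wildtype and 9.40 to 10.74 in knockout tissue, and knockout array 1, at 10.74, is the farthest right point of every panel.

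Other cell types that could carry these transcripts were read from marker lists in the same way, and each count stands against 30.0% of all genes called, 13.2% higher and 16.8% lower. The goblet cell, crypt base and T and NK cell calls in either direction, 37.5%, 33.3% and 25% of those tested, lie near the 30.0%. All goblet cell calls were higher and all crypt base and T and NK cell calls lower. With 3, 2 and 1 genes called, these are too few to be read against the share for their direction. The T and NK cell list had a median of 0.19 on slide 1 and -0.49 on slide 2. Endothelial markers had 6 of 10 higher, with Pecam1 at 1.07 and Eng at 0.93, and a list mean of 7.63 to 8.16 in wildtype and 8.14 to 8.94 in knockout tissue. Of 10 pan-epithelial markers 1 rose (Krt20, 0.35), with a median of -0.07. None of 6 enterocyte markers passed by limma, and 0 had an unadjusted p under 0.05 (Rbp2 -0.51, adjusted p = 0.225), with list means of 11.90 to 12.89 and 11.16 to 13.20. Goblet cell markers had 3 of 8 higher, with Retnlb at 2.80 and Ccl6 at 1.32, and Paneth cell markers 3 of 7 higher and 1 lower, with Ang4 at 1.19 and Pla2g2a at -1.71. Crypt base markers had 2 of 6 lower, Olfm4 at -2.31 and Axin2 at -0.41. Of 3 neutrophil markers tested none passed by limma, again with 0 at an unadjusted p under 0.05 (Csf3r 0.28, adjusted p = 0.185), and 3 more, Cxcr2, Mpo and Mmp8, were not detected on any array. None of 8 smooth muscle (Lmod1 0.30, adjusted p = 0.543) or 4 B and plasma cell markers (Mzb1 -0.64, adjusted p = 0.146) passed by limma, with 0 at an unadjusted p under 0.05 in both lists, and 1 of 4 T and NK cell markers fell (Cd3e, -0.58). The part of these cells in the member differences was not tested.

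Among the other Toll-like receptors and co-receptors, 6 of 10 tested genes rose and 1 fell, with a median of 0.52 against -0.02 for all genes. Of all genes, 13.2% rose and 16.8% fell. Lbp, the plasma protein that delivers lipopolysaccharide to CD14, rose by 1.00 (SE 0.26, adjusted p = 0.00902, limma). Tlr13, a receptor of mouse endosomes for bacterial ribosomal RNA, rose by 0.99, Tlr7, an endosomal receptor for single-stranded RNA, by 0.94 and Tlr1, a partner of TLR2, by 0.83. For Tlr1 the groups did not overlap. The one gene that fell was Tlr6, the other partner of TLR2, from 7.25 to 6.74 on average (difference -0.50, adjusted p = 0.0298, limma). It was named after its value was seen, and with 75th percentile scaling 5 genes rose and none fell by limma. Slide medians of the list were 0.53 and 0.44, with 3 genes called on slide 1 alone and 2 on slide 2 alone. With the macrophage and dendritic cell marker mean as a covariate 1 gene was called.

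Genes downstream of the receptors were called in either direction about as often as genes in general, of which 30.0% passed. By direction they were not alike: most calls in both lists below were rises, where 13.2% of all genes rose and 16.8% fell. Among adaptors, kinases and ubiquitin ligases 5 of 20 rose and 1 fell, with a median of 0.12 (slide medians 0.07 and 0.20). The negative regulators Tnfaip3, which encodes the ubiquitin-editing enzyme A20, and Irak3, a kinase-like inhibitor of Toll-like receptor signalling, rose by 0.82 and 0.76 (adjusted p = 0.00173 and 0.000731, limma). The kinase gene Tbk1 rose by 0.40, and Tirap, the adaptor that brings MYD88 to TLR2 and TLR4, by 0.37 at an adjusted p of 0.0499 (limma). Tab1, which fell by 0.33, was named after its value was seen. This count went from 6 to 3 without wildtype array 1, wildtype array 5 or knockout array 2. It was 1 on slide 1 alone and 3 on slide 2 alone. Of 9 NF-kappaB subunits and inhibitors 3 rose, the inhibitors Nfkbie (0.58) and Nfkbia (0.36) and the subunit Nfkb1 (0.30), with a median of 0.17 (slide medians 0.20 and 0.26). With 75th percentile scaling, or on either slide alone, 1 of them passed. With the marker mean as a covariate no gene of these lists passed by limma, where 4 genes of the adaptor list and 3 of the NF-kappaB list had an unadjusted p under 0.05.

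Partners of NOD1 and NOD2 rose for 5 of 10 tested genes and fell for none, where 13.2% of all genes rose and 16.8% fell, with a median of 0.42 (slide medians 0.32 and 0.42). Ripk2, the kinase through which both sensors signal, averaged 5.87 ± 0.35 on wildtype and 6.80 ± 0.38 on knockout arrays (SD, n = 8 each; difference 0.92, SE 0.17, adjusted p = 0.000851, limma). Its probe was detected on 4 of 8 wildtype and on all knockout arrays, so the wildtype mean rests on values near background. With values raised to the lowest detected signal as above, the difference was 0.72. Ripk2 reached the detection filter only with knockout arrays, where it was high, so its call cannot be read against these shares. The ubiquitin ligase genes Birc3 and Rnf31 rose by 0.90 and 0.58, and Slc15a3, a lysosomal transporter of bacterial peptides, by 0.89. On slide 1 alone 4 genes passed, on slide 2 alone 1, and with the marker mean as a covariate 1. Of 7 other NOD-like receptor genes, Nlrc5, an activator of MHC class I genes, rose by 1.56 (SE 0.20, adjusted p = 3.29e-05, limma), with no overlap between the groups. That 1 call of 7 is below the 30.0% of all genes. The median of these 7 was 0.19 (slide medians 0.19 and 0.18). The count was 2 without wildtype array 3 or knockout array 1 and 3 without knockout array 3. Nlrp3 and Nlrp1a were not detected on any array.

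Inflammasome partners and products moved in both directions, with 8 of 15 higher and 2 lower, where 13.2% of all genes rose and 16.8% fell. With 75th percentile scaling 5 were higher and 3 lower. Aim2, a DNA sensor that recruits the Pycard product, read 8.64 on average in wildtype and 5.76 in knockout tissue (difference -2.88, SE 0.19, adjusted p = 1.48e-08, limma) and was detected on all wildtype but on 3 of 8 knockout arrays, so its knockout mean rests on background. With values raised to the lowest detected signal the difference was -2.68. Aim2 passed the detection filter only through wildtype arrays, where it was high, so its call cannot be read against these shares. Il18, a cytokine made mature by caspase-1, fell by 0.98 (SE 0.15, adjusted p = 0.000214, limma), and the groups did not overlap. Casp4, the caspase that binds cytosolic lipopolysaccharide, rose by 1.06 (adjusted p = 0.00693, limma), where its other 2 probes differed by 0.90 and 0.16. Il1rn, the interleukin-1 receptor antagonist gene, rose by 0.90 (adjusted p = 0.000997, limma). The list's median was 0.36 and its mean 0.09 (slide medians 0.45 and 0.29). On slide 1 alone 1 gene passed, on slide 2 alone 5, and with the marker mean as a covariate 2, 1 higher and 1 lower. Interferon response genes rose for 20 of 21 tested members (the exception, Irgm1, named after its value was seen, differed by 0.08 on its brightest probe and 1.35 on its other), with a median of 1.19 (slide medians 1.11 and 1.25) and with Oas2, Ifit3, Gbp2 and Gbp3 at 2.60, 2.54, 2.24 and 2.20. With the marker mean as a covariate 17 of them passed, and on slide 1 alone 13. Where a probe had to be detected on every array of at least 1 genotype, 17 were called, all higher. Interferon response genes that reached the detection filter only with knockout arrays, where they were high, were not counted apart. The 20 calls therefore cannot be read against the shares of all genes.

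**Figure D5:**
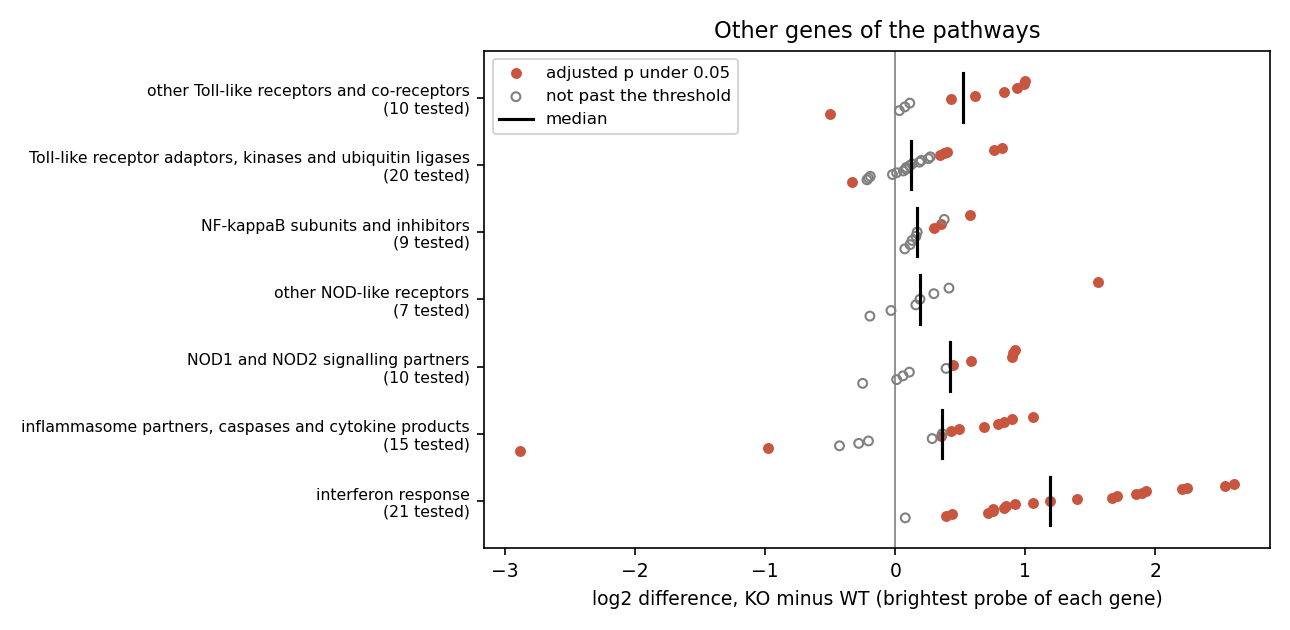
Log2 difference, knockout minus wildtype, of each tested gene in 7 lists of related genes, read from its brightest probe; filled points passed an adjusted p of 0.05 (limma), open points did not, and the black bar is the list median. The medians run from 0.12 for adaptors, kinases and ubiquitin ligases to 1.19 for interferon response genes, and the lowest points are Aim2 at -2.88, whose knockout values are mostly at background, and Il18 at -0.98.

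For each tested member, the gene most like it among 10136 others was found by Pearson's r of values over the 16 arrays after each genotype's mean was subtracted, so that the shared genotype difference does not count. These are the highest of many values, so no p is given, and the arrays share slides and tissue make-up. Tlr2 was closest to Lmo2, a LIM-domain cofactor gene (r = 0.82, Spearman's rho 0.58), with r = 0.90 among knockout arrays and 0.57 among wildtype arrays. Tlr4 was closest to the homeobox gene Hoxb7 (r = 0.80, rho 0.86). Cd14 was closest to the nucleoside transporter gene Slc29a3 (r = 0.92, rho 0.80), and Myd88 to Csrnp1 (r = 0.90, rho 0.86). Nod1 was closest to Pcolce2, a gene of procollagen processing (r = 0.88, rho 0.80), with r = 0.97 among knockout arrays and 0.49 among wildtype arrays. Pycard was closest to Alkbh7 (r = 0.82, rho 0.81), and Casp1 to the deubiquitinase gene Usp33 (r = 0.94, rho 0.83). Of these closest genes, Lmo2, Hoxb7 and Csrnp1 themselves rose by 0.83, 0.88 and 0.58, and Alkbh7 fell by 0.68. Slc29a3, Pcolce2 and Usp33, with differences of 0.05, 0.57 and 0.01, did not pass.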

How the data were processed

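The authors deposited a mean bead intensity per probe and array, not normalized as far as their table is named, and beside it a deposited detection p-value, whose steps match 798 negative controls. A second deposited table, with no method named, gives another intensity for each probe. Its scale is linear, its medians lie between 158.5 and 159.0, and it served as an alternative. No source used here gives the scanner software, genome build or probe positions.

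For the tests, background was corrected by normexp with controls inferred from detection p (limma 3.58.1, R 4.3.3, offset 16, which shrinks differences of dim probes), quantile normalized and log2 transformed. Probes detected (p under 0.05) on at least 6 of 16 arrays, 13460 in all, were fitted with limma (lmFit, eBayes, genotype as the only term). Intervals are 95% intervals of that fit. For lists, genes were read from their brightest probe; array symbols were updated through RefSeq (20733 current, 3903 by synonym, 1061 kept). Samples were taken as separate mice, since the design text calls them mice; where that fails, p-values measure technical spread. The number of arrays limits the precision. No per-sample column was left unmapped.

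Named genes are all members, Hnf4a, up to 4 called genes per pathway list with the largest change (the smallest p where none passed), up to 2 per marker list, and the most similar gene of each member. The members and lists were chosen with earlier results of these data known. Alternatives changed background, offset, scaling, filter, slide, pairing, probe choice, a marker covariate and each array in turn.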

Additional observations from a re-analysis of the deposited data

Results flagged for a closer look

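A value standing apart from its group was sought in 24 groups of 8 arrays (11 member probes and Hnf4a, by genotype), and chance alone marks about 1 in 20 groups. It was found in 4. Cd14 read 9.93 on knockout array 1, with the next knockout array at 9.35. Myd88 read 12.49 on knockout array 5, with the next at 12.32. Tlr3, which was mostly undetected, read 5.24 on knockout array 3, with the next lowest at 5.80. The undetected Tlr4 probe read 5.57 on wildtype array 1, with the next at 5.29. The gap reached 0.629 of the group's range for Cd14, 0.559 for Myd88, 0.578 for Tlr3 and 0.581 for Tlr4.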

How the results depend on the processing

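Tlr2, Tlr4 and Pycard kept direction and call in 27 of 28 alternatives and Nod1 in 26, the exceptions being the macrophage and dendritic cell marker mean as a covariate (values in the report) and, for Nod1, slide 1 alone. Over all alternatives the differences ran from 0.53 to 1.09 for Tlr2, 0.76 to 1.55 for Tlr4, 0.12 to 0.73 for Nod1 and -1.47 to -0.98 for Pycard. The number of member probes called was 4, between 4 and 5 with 1 array left out (5 without wildtype array 1), and 0 by limma with that covariate, where 2 had an unadjusted p under 0.05. The count over all probes, 3954, was 3356 to 4354 with 1 array left out, 940 on slide 1, 1590 on slide 2 (fewer arrays each) and 622 with the covariate. Values that changed sign were Cd14 with the covariate (-0.33) and Casp1, at -0.14 with 75th percentile scaling, -0.11 on slide 1, -0.08, -0.03, -0.00122, -0.01 and -0.02 without wildtype array 1 or 5 or knockout array 4, 6 or 7, where leaving out 1 array gave -0.0808 to 0.0839. None of these was a called value, and the cause was not tested. Replicate numbers are shared between the genotypes, and same-numbered arrays also share a slide. Their deviations correlated with r from -0.23 to 0.38, above 0.1 in 6 of 8 pairs, and 2 of 8 correlated best with their own number. Pairing was taken to need every pair above 0.1, so the numbers were not used as pairs. With the replicate number as a block 4 member probes and 4444 of all probes passed, and each member kept its call. That block raised the count of other NOD-like receptors from 1 to 2, as did 75th percentile scaling and the covariate. Signal at or near background limits the 4 untested member probes and the tested Tlr4 probe.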
